A study of Mus musculus with 18 samples.

Results

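The granulosa cell genes Foxl2, Wt1, Nr5a2, Fshr, Cyp19a1 and Hsd17b1 were followed through 18 mouse oocyte libraries, and the set was chosen by gene symbol with the levels of these same libraries already known. For that reason their levels and fold changes are given as a description, without a test. They are 6 of 53715 genes in the count table, and all 6 were also among the 28252 genes with a TPM value, the read count normalised to transcript length and library size. The 6 groups of 3 libraries crossed oocyte stage (primordial follicle, primary follicle, metaphase II) with growth in vivo or in vitro, and all mice were C57Bl/6j x CBA/J F1 females. In vivo primordial and primary oocytes were cut by laser capture microdissection (LCM) from uncultured ovaries of 14-day-old mice, and their in vitro counterparts from ovaries that were taken at 7 days of age and cultured for 7 days in α-MEM with 10% serum, ITS and recombinant FSH. In vivo metaphase II (MII) oocytes were ovulated by adult females primed with HMG and hCG. In vitro MII oocytes came from secondary follicles of cultured ovaries that were grown for 12 days in alginate beads with recombinant FSH and then triggered with hCG. Each MII library held 10 oocytes. LCM oocytes of a stage were pooled within a sample.

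Granulosa cells are the somatic cells that surround each oocyte. Flattened pregranulosa cells enclose the oocyte of a primordial follicle and become cuboidal in the primary follicle. In antral follicles granulosa cells respond to FSH by making estradiol, while the cumulus subset stays around the oocyte. FOXL2 is a forkhead factor that maintains ovarian cell identity. WT1 is a zinc finger factor of gonadal somatic cells, present in granulosa cells of small follicles and also in the ovarian surface epithelium. NR5A2 (LRH-1) is a nuclear receptor that drives steroidogenic genes in granulosa cells, FSHR is the FSH receptor, CYP19A1 is aromatase, the enzyme that turns androgens into estrogens, and HSD17B1 reduces estrone to estradiol.

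The 12 LCM libraries held 15149564 to 29205503 assigned reads and the 6 MII libraries 7334817 to 9978830, yet a read was seen for only 6048 to 13755 genes per LCM library against 14512 to 18239 per MII library. The 2 kinds of library were made with different extraction and amplification kits, so stage and library kit cannot be told apart and no LCM library was tested against an MII library. The floor used here, 3 reads, equals 0.0930 to 0.216 CPM (counts scaled to library size) in LCM and 0.284 to 0.360 CPM in MII libraries. This covers counting error only. Spearman correlations between libraries of 1 group ran from 0.622 to 0.843 in LCM and from 0.871 to 0.893 in MII oocytes. Primary in vivo library 2 stood apart by smooth muscle and collagen RNA, with 240844 reads of Acta2 and 466458 of Col1a1. The stromal genes Dcn and Pdgfra did not peak there, with 242 and 374 reads against maxima of 2355 and 3378 over the LCM libraries. Nothing in the sources states that the 3 libraries of a group came from separate mice, so their spread may be partly technical.

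The 6 genes did not behave as 1 group. Foxl2 and Wt1, the identity factors, gave over 1000 reads in 8 and 10 of 12 LCM libraries, and in MII oocytes Foxl2 gave no read and Wt1 a single one. Cyp19a1 and Fshr showed the reverse layout, with 334 to 1039 Cyp19a1 reads in every MII library, and 7 Cyp19a1 reads and no Fshr read in all 12 LCM libraries together. Nr5a2 was read in both kinds of library. Hsd17b1 stayed at or below 35 reads throughout. The levels therefore go against a common granulosa label. The 2 defining factors are at or near 0 in MII libraries. Every LCM library with over 1000 reads of Foxl2 also had over 1000 of Wt1. Primordial in vivo library 1 and primordial in vitro library 1 had 187 and 0 reads of Foxl2 beside 28269 and 9222 of Wt1. The 10 theca and stroma markers summed higher than the 6 genes in LCM libraries, except primordial in vitro library 2 (461 against 496 TPM). All reads are therefore described gene by gene. In bulk samples, fewer cells of a type and less RNA per cell cannot be told apart.

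**Figure D1:**
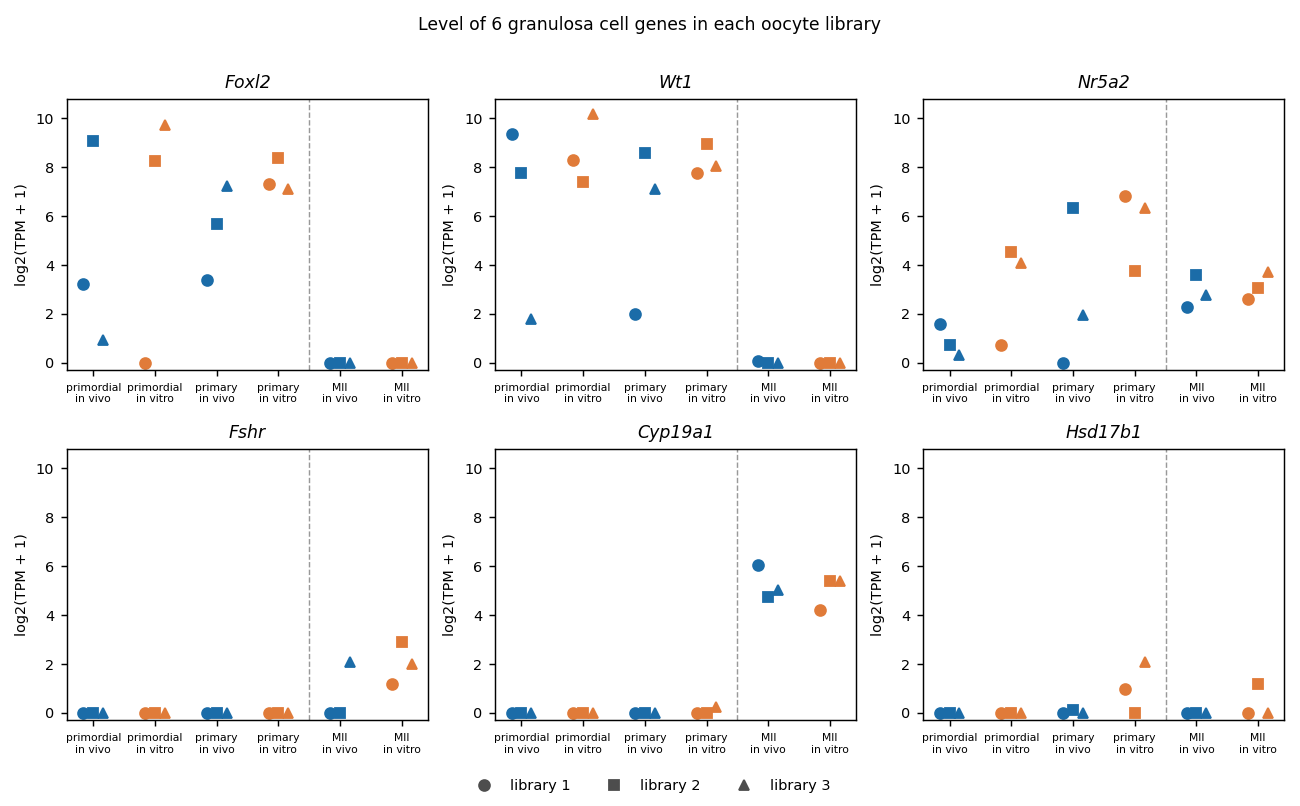
Level of each of the 6 genes as log2(TPM + 1) in 18 libraries, in vivo in blue and in vitro in orange, with the symbol giving the library number within its group and a dashed line between LCM (left) and MII (right) libraries. Foxl2 and Wt1 reach 852 and 1154 TPM left of the line and lie at 0 or 0.0454 TPM or less to its right, whereas Cyp19a1 lies between 17.5 and 64.7 TPM in MII libraries and at or below 0.193 TPM elsewhere.

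Wt1 had the most reads of the 6 in LCM oocytes. In primordial oocytes it had 28269, 9516 and 111 reads in vivo and 9222, 8911 and 46004 in vitro. In primary oocytes it had 131, 17144 and 4404 reads in vivo and 9359, 22896 and 13158 in vitro. In 10 of the 12 libraries it exceeded 1000 reads, and primordial in vivo library 3 and primary in vivo library 1 were far below the others. These 2 libraries had a read for 7849 and 6048 genes, toward the low end of the range. Primordial in vitro library 1 had a read for 6147 genes and 9222 reads of Wt1. The part of library complexity was not tested. In length-normalised units Wt1 ran from 2.43 to 1154 TPM with a median of 241, a 475-fold range, and in primordial in vitro library 3 only 117 of 28252 genes, Wt1 included, were as high or higher. By mean TPM the groups ranked primordial in vitro (546 ± 531, SD, n = 3), primary in vitro (324 ± 145), primordial in vivo (295 ± 337) and primary in vivo (174 ± 190), and each group overlapped its neighbours. Primary in vivo library 2, the one rich in Acta2 and collagen RNA, held 73.6% of the summed Wt1 CPM of its group. In MII oocytes 1 read fell on Wt1 in vivo and none in vitro.

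Foxl2 followed Wt1 in being high and uneven, with the same highest library, primordial in vitro library 3, but the 2 genes did not match in every library. Its primordial reads were 187, 12450 and 22 in vivo and 0, 8442 and 17852 in vitro. Its primary reads were 214, 1183 and 2484 in vivo and 3568, 8056 and 3602 in vitro. Primordial in vitro library 1 had no Foxl2 read while it had 9222 of Wt1, and primordial in vivo library 1 had 187 against 28269. Foxl2 exceeded Wt1 on the TPM scale in 4 of 12 LCM libraries, and its median was 143 TPM. One library carried 98.1% of the primordial in vivo signal, and the primary groups overlapped only in that in vivo library 3, at 149 TPM, was above in vitro library 3, at 138 TPM. Mean levels ranked primordial in vitro (385 ± 432 TPM, SD, n = 3), primary in vitro (208 ± 104), primordial in vivo (184 ± 310) and primary in vivo (69.4 ± 71.8), again with overlap between all neighbours. All 6 MII libraries had 0 reads. Foxl2 lies at chr9:98955288-98958543 (GRCm38, plus strand) and shares 12 bp with Foxl2os on the other strand. Foxl2os had at most 48 reads in LCM and 0 in MII libraries. For Wt1 (chr2:105126529-105173616, plus strand) the adjoining antisense gene Wt1os had at most 27 and 2. The assignment of reads between these neighbours was not tested.

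Nr5a2 was the member read in most libraries, 17 of 18. Primordial oocytes gave 81, 28 and 11 reads in vivo and 18, 1120 and 598 in vitro. Primary oocytes gave 0, 3463 and 87 in vivo and 4615, 562 and 3722 in vitro. MII oocytes gave 82, 192 and 118 in vivo and 129, 155 and 233 in vitro. LCM libraries thus spread from 0 to 113 TPM (median 7.74), whereas MII libraries stayed within 3.91 to 12.1 TPM (median 6.69), a 3.10-fold range. Primary in vivo library 2 supplied 96.7% of the Nr5a2 CPM of its group. Relative to Wt1 in the same LCM library, Nr5a2 had a median TPM ratio of 0.0233 and never exceeded it. The gene spans chr1:136842571-136960448 on the minus strand.

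Cyp19a1 was the best-read of the 6 in MII oocytes. Its reads were 1039, 350 and 479 in vivo and 334, 655 and 611 in vitro, so in vivo library 1 was the highest and the groups overlapped. The level over the 6 libraries was 37.0 ± 16.4 TPM (SD, n = 6), and between 6.71% and 14.7% of the genes with a TPM were as high or higher. It exceeded Nr5a2 in 6 of 6 MII libraries, by 2.38 to 16.5 times in TPM. Set against oocyte genes of the same library, Cyp19a1 was 0.00292 to 0.00545 of Gdf9, the oocyte growth factor, and 0.0515 to 0.376 of Zp3, a zona pellucida protein, and it exceeded the germ cell helicase Ddx4 in the 3 in vivo libraries and in no in vitro library, where Ddx4 itself had more reads. LCM libraries had no Cyp19a1 read except for 7 in primary in vitro library 3. The gene occupies chr9:54165937-54268110 on the minus strand, with 5 annotated transcripts and no overlapping gene.

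Cyp19a1 and Nr5a2 were the members read in every MII library, and NR5A receptors are known regulators of aromatase. The RefSeq start-site windows (GRCm38.p6, 250 bases before to 50 after a start) of the 6 genes were therefore searched for AGGTCA on both strands. These letters are a general half-site of nuclear receptors. For 4 genes 7 windows were matched, for Cyp19a1, Foxl2, Fshr and Nr5a2, and those of Hsd17b1 and Wt1 were not examined. The letters occurred once in 2 of 7 windows, against 16.3% of all 32851 windows. They are not specific to NR5A receptors, so a match does not mark an NR5A site, and binding was not tested. The 2 windows that hold them are given 5′ to 3′ on the gene's strand (minus for both), with the half-site or its reverse complement in capitals, first Cyp19a1 at chr9:54268115-54268414, where the match starts at base 170, and then Nr5a2 at chr1:136960399-136960698, where it starts at base 187.
Cyp19a1: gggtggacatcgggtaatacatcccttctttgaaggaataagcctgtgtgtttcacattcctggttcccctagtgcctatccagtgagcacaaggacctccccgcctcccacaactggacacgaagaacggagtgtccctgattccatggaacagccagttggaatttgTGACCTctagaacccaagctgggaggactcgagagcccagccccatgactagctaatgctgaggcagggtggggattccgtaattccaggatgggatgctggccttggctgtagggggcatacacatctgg
Nr5a2: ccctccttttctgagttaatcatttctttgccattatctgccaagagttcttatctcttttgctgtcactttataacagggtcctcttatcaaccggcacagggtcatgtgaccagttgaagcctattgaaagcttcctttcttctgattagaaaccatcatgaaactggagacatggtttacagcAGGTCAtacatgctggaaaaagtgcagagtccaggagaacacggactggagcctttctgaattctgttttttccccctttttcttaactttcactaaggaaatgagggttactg
The other 2 Cyp19a1 windows, at chr9:54193694-54193993 and chr9:54228865-54229164, did not hold these letters. Gene-level counts do not show which start was used.

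Fshr reads were few and confined to MII libraries among those sequenced. In vivo libraries had 0, 0 and 23 reads and in vitro libraries 11, 47 and 20. In MII oocytes 4 of 6 libraries were above the floor, with a maximum of 6.42 TPM, and the groups overlapped. None of the 12 LCM libraries had a read of Fshr (chr17:88984952-89200675, minus strand). At the LCM floor of 0.0930 to 0.216 CPM, a lower level was not detectable.

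Hsd17b1 (chr11:101078411-101080527, plus strand) was close to absent from the reads. Primary oocytes had 0, 1 and 0 reads in vivo and 9, 0 and 35 in vitro, MII oocytes had 6 reads in in vitro library 2, and all other libraries had 0. Its highest level was 3.25 TPM, in the same primary in vitro library that held the 7 Cyp19a1 reads.

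**Figure D2:**
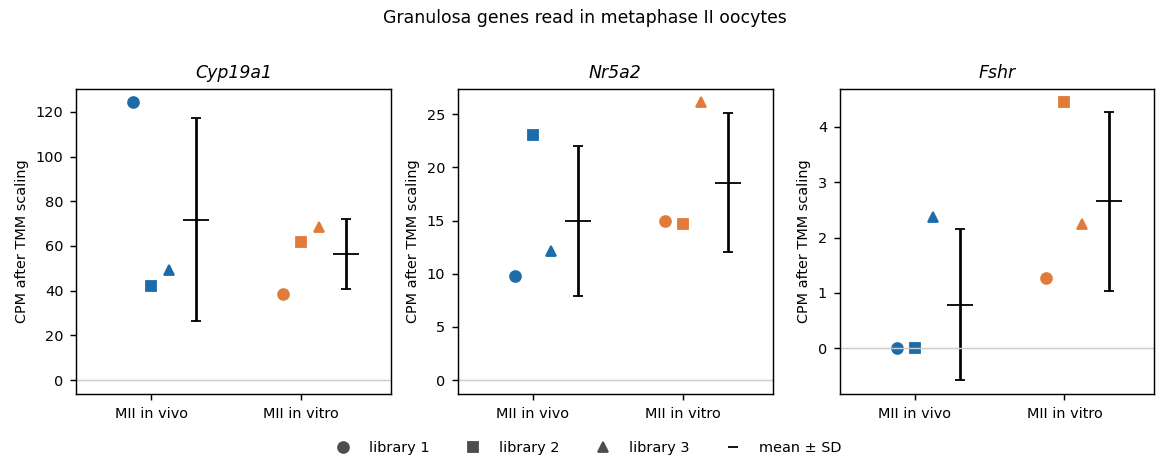
CPM after TMM scaling of Cyp19a1, Nr5a2 and Fshr in the 6 MII libraries, in vivo in blue and in vitro in orange, with symbols for single libraries and a bar for mean ± SD (n = 3). Cyp19a1 averages 71.8 ± 45.5 CPM in vivo and 56.4 ± 15.6 in vitro, and the 2 groups overlap for all 3 genes.

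Growth in vivo was compared with growth in vitro at each stage, and primary with primordial oocytes under each condition, in edgeR fits over all genes. The threshold for a call was a change of 2-fold or more with an adjusted p (Benjamini-Hochberg) below 0.05. For primordial oocytes the estimated in vitro over in vivo log2 fold change was 1.32 (SE 2.05) for Foxl2, 1.04 (SE 1.54) for Wt1 and 3.81 (SE 3.17) for Nr5a2. Of the 4 members tested there none was called, beside 0.0326% of all genes (5 of 15317). For primary oocytes it was 1.56 (SE 2.06) for Foxl2, 0.86 (SE 1.54) for Wt1 and 1.01 (SE 2.86) for Nr5a2, while Hsd17b1 was at least 3.01-fold higher in vitro against the floor, through in vitro library 3, which held 78.8% of its CPM and without which the mean of 0.146 CPM was under the floor of 0.153 CPM. No gene at all was called for primary oocytes (0% of 15317 by edgeR, 1479 with an unadjusted p under 0.05 and 236 called by DESeq2), and the median estimate over all genes was 0.44. In MII oocytes the log2 difference was -0.35 (SE 0.44) for Cyp19a1, 0.31 (SE 0.51) for Nr5a2 and 1.72 (SE 1.58) for Fshr, with none of the 3 called beside 0.35% of 17144 genes. No member separated the 2 groups without overlap at any stage, against 6.59%, 9.99% and 16.2% of all genes tested in primordial, primary and MII oocytes. Since the members were chosen with these values known, nothing is read from these counts.

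From primordial to primary follicles, edgeR gave estimates below 0 for Foxl2 and Wt1 and above 0 for Nr5a2 under both conditions, but the Foxl2 direction turned with limma on log2(TPM + 1), to 1.01 in vivo and 1.6 in vitro, and with a replicate block in vitro, to 0.42. In vivo the log2 fold change was -1.27 (SE 2.04) for Foxl2, -0.75 (SE 1.54) for Wt1 and 4.82 (SE 3.32) for Nr5a2. In vitro it was -1.03 (SE 2.03), -0.92 (SE 1.54) and 2.02 (SE 2.94). Hsd17b1 was at least 2.92-fold higher in primary than primordial oocytes in vitro, again only with primary in vitro library 3 (mean of 0.146 CPM without it, floor of 0.157 CPM), and at the floor in both groups in vivo. No member was called, beside 0.0522% of genes in vivo (8 of 15317) and 0% in vitro (0 by edgeR, 1673 with an unadjusted p under 0.05 and 439 called by DESeq2), and none had groups without overlap, beside 6.39% and 11.2% of all genes. The primordial and primary groups serve in both a growth and a stage comparison, so these estimates share libraries.

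Single libraries set the sign of several estimates. Without primordial in vitro library 3, the primordial growth difference became -0.005 for Foxl2 and -0.08 for Wt1, and the in vitro stage difference became 0.32 and 0.21. Without primordial in vivo library 2, the Foxl2 growth difference in primordial oocytes was 6.41 and its in vivo stage difference 3.82. Without primordial in vivo library 1, the in vivo stage difference of Wt1 was 0.80. Without primary in vivo library 2, Nr5a2 differed by 5.35 between growth conditions in primary oocytes and by 0.48 between stages in vivo, while Wt1 differed by 2.20 and -2.09 and Foxl2 by 1.38 and -1.09. In MII oocytes, Cyp19a1 turned to 0.30 without in vivo library 1 and Nr5a2 to -0.03 without in vitro library 3, and Fshr, 0 in the other two in vivo libraries, went from 1.72 to 7.58 without in vivo library 3 (3.94 with the replicate block). All are log2 fold changes.

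A companion list of 18 further granulosa genes showed the same split between LCM and MII libraries for some members and not for others. In LCM libraries Gja1, the gap junction protein connexin 43, had 10 to 26724 reads and was above the floor in 12 of 12. Runx1, a transcription factor of pregranulosa cells, had 1 to 10750 reads, Inha, the inhibin alpha subunit, 0 to 18330, and Fst, the activin-binding follistatin, 0 to 9134. In MII libraries Runx1 and Fst had no read, together with Amhr2, the receptor for anti-Müllerian hormone, and Nr5a1, the second NR5A receptor, while Gja1 had at most 9. Above the floor in every MII library, like Cyp19a1 and Nr5a2, were 3 companions, Esr2 (estrogen receptor beta) with 343 to 666 reads, Gata4 (a GATA factor of gonadal somatic cells) with 204 to 483, and Kitl (the ligand of the oocyte receptor KIT) with 27 to 167. Summed over the list, companions reached 88.8 to 2852 TPM in LCM (median 594) and 50.9 to 100.1 TPM in MII libraries.

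**Figure D3:**
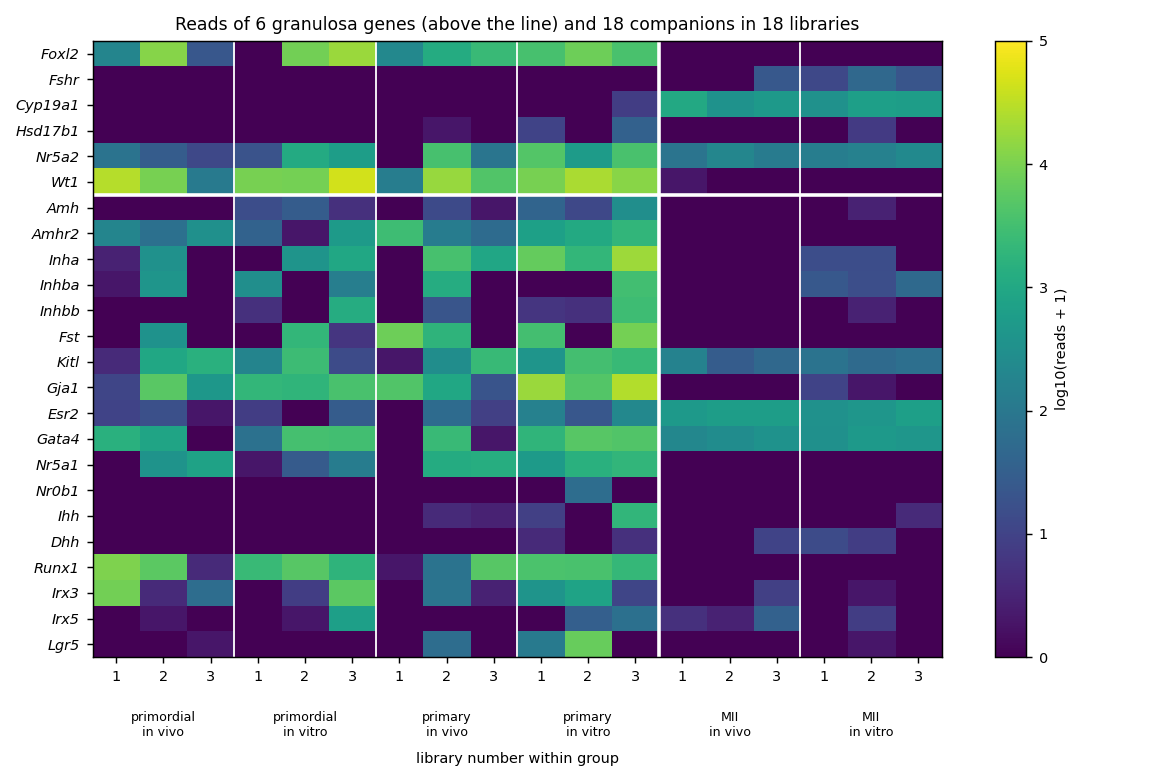
Reads of the 6 genes (above the white line) and the 18 companions (below it) in 18 libraries, as log10(reads + 1) by colour, with the library number within each group on the x axis. Wt1, Foxl2, Gja1 and Runx1 are bright in most LCM columns and dark in the 6 MII columns, where Cyp19a1, Esr2, Gata4, Nr5a2 and Kitl are read in every library.

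Of 17 companions tested in LCM and 8 in MII oocytes, edgeR called none in any of the 5 comparisons, with the background shares above, and DESeq2 called 1 of 17 in primordial and 1 of 8 in MII oocytes between growth conditions, beside 5.28% and 2.05% of all genes. In primary oocytes and between stages in vivo and in vitro DESeq2 called 0 of 17, beside 1.54%, 3.61% and 2.87%. In vitro estimates lay above in vivo ones for 10 of 17 in primordial, 15 of 17 in primary and 5 of 8 in MII oocytes. The median log2 fold change was 0.84, 2.24 and 0.83, or 0.84, 2.24 and 0.32 with genes of a group at the floor set to their bound, beside 0, 0.44 and 0.04 over all genes. At an unadjusted p under 0.05 there were 3 of 17, 2 of 17 and 2 of 8 companions, beside 11.7%, 9.66% and 10.2% of all genes. Estimates in primary lay above those in primordial oocytes for 13 of 17 in vivo (median 1.36, or 0.49 with bounds, beside 0) and 14 of 17 in vitro (median 2.20 both ways, beside 0.44), with 0 and 3 at an unadjusted p under 0.05, beside 11.2% and 10.9% of all genes. Other marker lists moved as well, some in the direction of the companions and some against it. In primary oocytes the in vitro over in vivo median was 3.75 for surface epithelium, 4.33 for luteinizing and steroidogenic genes (0.83 with bounds), -1.33 for theca and stroma and -6.44 for blood, whose 3 genes summed to 1157 to 7503 TPM in primary in vivo and 0 to 174 TPM in primary in vitro libraries. Between stages in vitro the median was 10.11 for surface epithelium (5.24 with bounds) and 5.22 for luteinizing genes (3.69 with bounds). Their part in the companion estimates was not tested.

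Some companions separated the groups. Inhba, the beta A subunit of activin and inhibin, had 0, 0 and 0 reads in MII oocytes in vivo and 23, 15 and 51 in vitro, at least 9.54-fold higher in vitro against the floor with an edgeR adjusted p of 0.153, and it was called by DESeq2 and by edgeR without the filter on low counts. Amh, anti-Müllerian hormone, had 0, 0 and 0 reads in primordial oocytes in vivo and 14, 28 and 4 in vitro, at least 5.64-fold higher with an edgeR adjusted p of 0.414, and was also called by DESeq2. In MII oocytes Inhba passed the filter on low counts only through its in vitro reads. The marker lists were chosen with earlier results of these data known, so p-values and calls of their genes are given as a description. Inhba and Gata4 were the 2 of 8 whose MII groups did not overlap (16.2% of all genes). Amh was the 1 of 17 in primordial oocytes (6.59%), and no companion separated primary in vitro from in vivo oocytes (9.99%) or the stages in vivo (6.39%). In vitro, Inha, Gja1 and Nr5a1, 3 of 17, were higher in every primary than in every primordial library (11.2% of all genes), by 14.6, 4.12 and 20.2 times in mean CPM and with edgeR adjusted p of 0.612, 0.829 and 0.679.

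Markers of other cells differed between the kinds of library in both directions. The theca and stroma list of 10 genes, which includes collagens and Acta2, summed to 455 to 30490 TPM in LCM libraries (median 1149) and 0.312 to 6.50 in MII libraries, where 5 of the 10 had no read. Without primary in vivo library 2 the highest sum was 3525 TPM. The surface epithelium list of 5 genes, a tissue that also expresses Wt1, summed to 0 to 4284 TPM in LCM and 4.31 to 25.8 in MII libraries, with 6 of 12 LCM libraries below every MII library and 6 above. The endothelium, immune and luteinizing lists had higher medians in MII libraries (60.0, 17.1 and 24.2 TPM) than in LCM libraries (7.16, 0.184 and 0.545 TPM). Of 16 oocyte genes, 12 to 16 were above the floor in each LCM library and 14 to 15 in each MII library, with summed levels of 332 to 2117 and 10685 to 21435 TPM. Within single LCM libraries, Wt1 exceeded Zp3 in 9 of 12, Gdf9 in 10 of 12 and Ddx4 in 8 of 12 on the TPM scale. LCM libraries passed a capture step whose evenness between genes was not tested. Levels of different genes in them are therefore not strictly comparable. The list of 10 cumulus expansion genes holds genes that granulosa cells express at some time around ovulation, not all of them in cells still around an ovulated oocyte. Of these, 8 had no read in MII libraries, and Has2 and Ptgs2 had at most 12 and 32. The 7 with a TPM value summed to at most 2.32 TPM there. In LCM libraries 6 of the 10 had no read, Pgr and Adamts1 had up to 2570 and 3337, and the sum reached 85.4 TPM. The part of these other cells in the levels of the 6 genes was not tested.

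**Figure D4:**
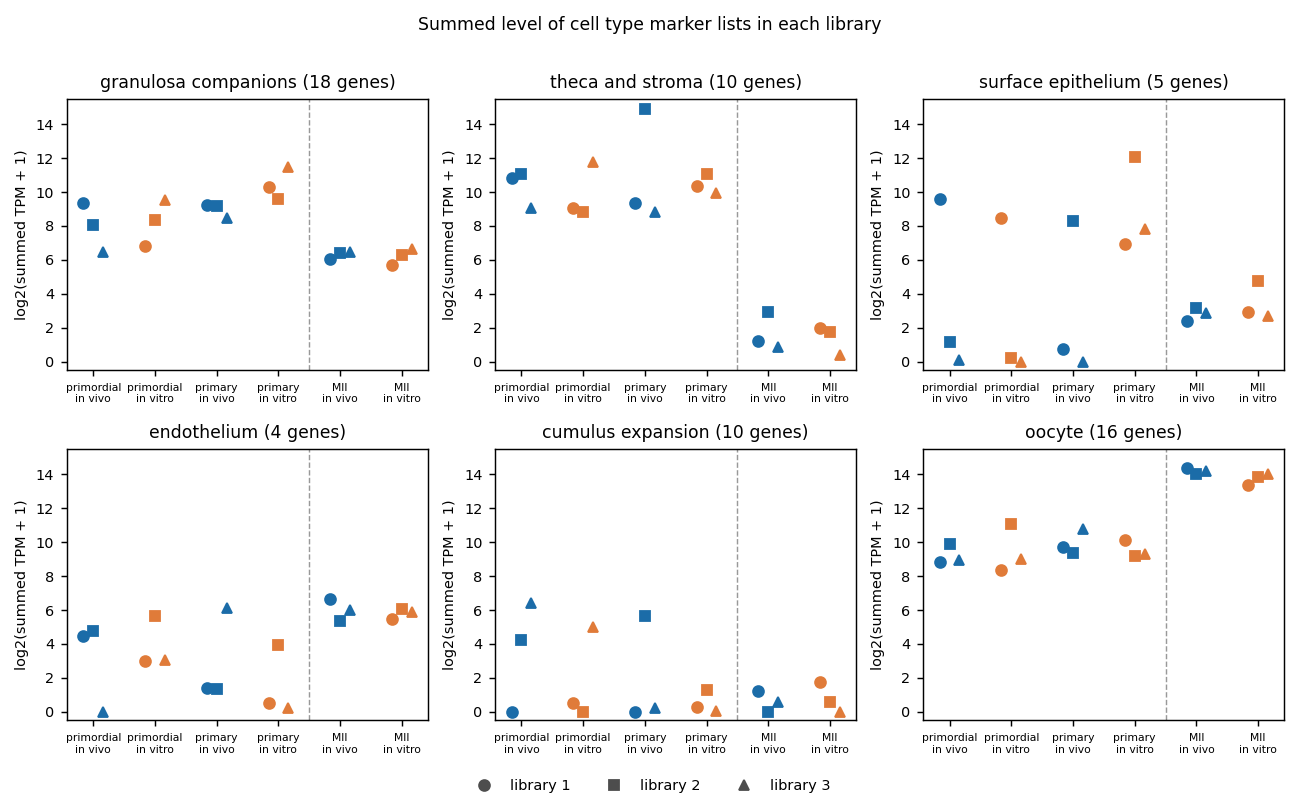
Summed level of 6 marker lists as log2(summed TPM + 1) in 18 libraries, in vivo in blue and in vitro in orange, symbols for the library number, dashed line between LCM and MII libraries. Theca and stroma genes fall from at least 455 TPM in each LCM library to at most 6.50 in MII libraries, and oocyte genes are above 10685 TPM only right of the line.

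Genes whose log2 CPM most resembled that of each member were listed by Pearson's r, as a description. Over the 12 LCM libraries these were Nlk (r = 0.922), Kidins220 and Abcb6 for Foxl2, Gm27406 (r = 0.949), Rps15a and Rpl41 for Wt1, Gpx3 (r = 0.906), Riok3 and Zbtb22 for Nr5a2, and Cmpk2 (r = 0.997), Trim62 and Gm10698 for Hsd17b1. For Foxl2, 12 of 15316 genes had r above 0.9, for Wt1 19, for Nr5a2 4, and for Hsd17b1, which was above the floor in only 2 libraries, 139. Over the 6 MII libraries the leading genes were Rttn (r = 0.985), AF366264 and Ctnna1 for Cyp19a1, Btg2 (r = 0.996), Cfl1 and Cpb2 for Nr5a2, and C2cd2l (r = 0.9995), Dpf2 and 1700007J10Rik for Fshr. With 6 points, 183, 93 and 125 of 17143 genes exceeded 0.9. No other member was among the 3 leading genes of any member, and all points share a library, its depth and its kit.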

How the data were processed

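RNA of 18 oocyte libraries was read. LCM libraries (paraffin sections, Paradise Plus extraction, Ovation PICO amplification, TruSeq RNA Access capture) and MII libraries (PicoPure, Smart-seq II) were prepared differently. Per the labels and the methods of the study, the authors trimmed reads with Trim Galore 0.4.1, aligned them to mm10 with TopHat2 and counted reads per gene with featureCounts. Strand and multi-read settings are not given in the sources used here. The deposited values are raw counts for 53715 genes and TPM for 28252 genes, computed by the authors. The members and marker lists were chosen with earlier results of these data known.

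Counts were tested with edgeR 4.0.16 (R 4.3.3, quasi-likelihood, TMM), in 1 fit of 12 LCM libraries and 1 of 6 MII libraries, on genes with at least 10 reads in total, with adjusted p over all genes. CPM values use TMM-scaled library sizes. Spread was large, with a biological coefficient of variation of 2.02 in LCM and 0.726 in MII libraries. Replicate numbers were not used as pairs. Alternatives were DESeq2 1.42.0, its size factors, no filter, at least 1 CPM in 3 libraries, limma 3.58.1 on log2(TPM + 1), a replicate block and each library left out.

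Named genes are the 6 members, per marker list any called gene and the 4 highest by mean CPM in each kind of library, and the 3 genes most alike each member. Listed genes outside that rule that are named (Amh, Amhr2, Nr5a1, Zp3) were chosen after their values were seen. Lists covered granulosa, luteinizing, cumulus, theca and stroma, surface epithelium, endothelium, immune, blood and oocyte genes. Gene positions are those of GENCODE on GRCm38. No column was left without a sample.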

Additional observations from a re-analysis of the deposited data

How the results depend on the processing

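edgeR called no companion with any library left out. Counts over all genes moved. DESeq2 called 809 genes in primordial, 236 in primary and 351 in MII oocytes for growth in vitro against in vivo, and 553 and 439 between stages in vivo and in vitro, with 1 companion in primordial (Amh) and 1 in MII oocytes (Inhba). Without a filter edgeR called 263 genes and 1 companion (Inhba) in MII oocytes. The primordial and in vivo stage counts fell to 0 without a filter, with the stricter filter and with limma on log2(TPM + 1), and DESeq2 size factors gave 1 gene in primary oocytes. Leaving out single libraries gave 0 to 13 genes in primordial, 0 to 4 in primary and 11 to 378 in MII oocytes, 0 to 11 between stages in vivo and 0 to 2 in vitro. The causes were not tested. MII counts moved most without in vivo library 1 (378), in vivo library 3 (19) and in vitro libraries 1, 2 and 3 (12, 14 and 11). Same-numbered libraries shared little deviation (r from -0.027 to 0.09). With so large a spread between libraries this cannot decide whether the numbers pair samples. The replicate block gave 1 gene in primordial oocytes and 0 between stages in vivo, and moved no other count of calls by over 1.5 times. With 3 libraries a group and member levels that differ up to 475-fold (Wt1) and 929-fold (Foxl2, among libraries above 0) within LCM oocytes, changes of a few fold in the members were not detectable there.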

Other observations

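Some genes that name other cell types were read in every MII library, as Cyp19a1 was. Pecam1, an endothelial adhesion protein, had 654 to 2105 reads in MII and at most 16 in LCM libraries, whereas Cdh5 of the same list had none in MII and up to 1738 in LCM libraries. Kdr and Tie1, also of that list, had 25 to 123 and 8 to 61 reads in MII and at most 1333 and 165 in LCM libraries. Scarb1, the HDL receptor of steroidogenic cells, had 321 to 784 and at most 78, whereas Lhcgr, the LH receptor of the same list, had none in MII and up to 679 in LCM libraries. Cyp11a1, Hsd3b1 and Star, the rest of that list, had at most 29, 36 and 16 reads in MII and 200, 210 and 11 in LCM libraries. Csf1r, the receptor for macrophage colony-stimulating factor, had 132 to 302 reads in MII libraries and none or 1 in 11 of 12 LCM libraries, with 494 in primary in vivo library 2. Ptprc and Adgre1, immune genes of the same list, had no read in any library. Summed in MII libraries, the endothelium list reached 40.3 to 98.3 TPM, of which Pecam1 gave 35.2 to 95.1, the immune list 9.06 to 24.9, the luteinizing and steroidogenic list 12.9 to 27.0 and the blood list 0 to 1.65. In LCM libraries they reached 0 to 69.7, 0 to 16.3, 0 to 43.5 and 0 to 7503 TPM, the last through Hba-a1 with 42352 reads in primary in vivo library 1.

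Among all marker lists 1 gene was called by edgeR. Ddx4, against which Cyp19a1 was set above, had 373, 120 and 244 reads in MII oocytes in vivo and 2769, 3906 and 2661 in vitro, a log2 fold change of 3.55 (SE 0.43, adjusted p 0.00206).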
